A study of Mus musculus with 6 samples.

Results

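The 44 genes described here encode the motor proteins and subunits of the complexes that move, evict or exchange nucleosomes with the energy of ATP. They were taken by name, as the CHD family and members of the SWI/SNF (BAF), ISWI and INO80 complexes, and all 44 matched a gene among the 55450 in the count tables. The study sequenced polyadenylated RNA from the cerebral cortex of adult mice in 6 libraries, of which 3 are labelled Setd5 heterozygous and 3 wildtype. Setd5 codes for a chromatin protein with a SET domain, and the comparison asks what differs in cortex of animals that carry the heterozygous state. The labels give neither the form of the Setd5 allele, nor the strain, the sex or an age beyond adult, and whether libraries of a group are from different animals is left unsaid. A p-value here weighs only the spread between libraries, part of which may be technical.

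Remodellers are built around an ATPase of the SNF2 superfamily, which pulls DNA around the histone core. BAF complexes open chromatin at enhancers and promoters, ISWI complexes space nucleosomes, CHD proteins act alone or, as CHD3, CHD4 and CHD5, in the NuRD deacetylase complex, and the INO80 family exchanges histone variants. When neural progenitors leave the cell cycle, BAF swaps several subunits for neuronal paralogs: ACTL6A for ACTL6B, PHF10 for DPF1 or DPF3, and SS18 for SS18L1. Variants in the human counterparts of ARID1B, CHD8, CHD2 and several other members cause intellectual disability or autism, as do those of SETD5.

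The libraries held 82850628 to 92860628 counts in genes. Level is given as CPM, counts scaled to a common library size after a correction for composition, or, where genes are compared with each other, as RPKM, the CPM per kilobase of annotated exon; values listed for a group are in the order of replicates 1, 2 and 3. Setd5 itself had 69.5, 68.8 and 75.3 CPM in the heterozygous libraries, and 111, 97.0 and 108 CPM in the wild type ones, so every heterozygous library lay below every wild type library. Its log2 difference was -0.56 (SE 0.07), with an adjusted p of 0.258 in edgeR's quasi-likelihood test, which did not pass the threshold of 0.05, and of 3.08e-07 in DESeq2. Xist reached 865 CPM in heterozygous replicate 3 and 784 CPM in wild type replicate 3 and stayed at or under 0.876 CPM in the other 4 libraries, so each group held 1 library with female counts. Summed markers of excitatory neurons ran from 4379 to 4956 CPM in heterozygous and from 4631 to 4797 CPM in wild type libraries, and no marker of the 12 cell classes examined was at 0 in all libraries. Summed endothelial markers were lower in every heterozygous library (123.5 to 128 CPM) than in any wild type library (133.5 to 141 CPM), with 5 of 6 genes below, as were those of pericytes and smooth muscle (238.5 to 245 CPM against 246 to 306 CPM), with 6 of 6 below. Summed blood cell markers also did not overlap (21.3 to 23.7 CPM against 24.2 to 30.4 CPM), though only 3 of their 5 genes were below. Microglial markers (318 to 354 CPM against 351 to 387 CPM) and meningeal fibroblast markers (38.5 to 43.0 CPM against 41.5 to 88.5 CPM) had 6 of 6 genes below. So did astrocyte markers (4047 to 4390 CPM against 4310 to 4434 CPM). Of the oligodendrocyte precursor markers (216 to 269 CPM against 249 to 268 CPM), 4 of 5 were below. Oligodendrocyte markers (9794 to 14340 CPM against 8096 to 10630 CPM) had 6 of 6 above. For all of these classes the sums overlapped. No marker of these lists passed the adjusted threshold, where 0% of all genes did. At an unadjusted p under 0.05 in edgeR's quasi-likelihood test, 5 of 6 meningeal fibroblast and 4 of 6 endothelial markers were lower. So were 3 of 6 pericyte and smooth muscle, 2 of 6 microglial and 2 of 6 astrocyte markers. Lower too were 2 of 5 oligodendrocyte precursor and 1 of 5 blood cell markers (3.38% of all genes). Oligodendrocytes had 2 of 6 higher and choroid plexus and ependyma 1 of 6 (2.44% of all genes). The other classes had 0. The part of these cells in the values below was not tested. Striatal markers ranged from 189 to 400 CPM in heterozygous and from 129.5 to 929.5 CPM in wild type libraries, highest in wild type replicate 3. Their fitted differences were below 0 for 6 of 6 genes. In bulk tissue, fewer cells of a type and less RNA per cell cannot be told apart. Wild type replicates 2 and 3 lay at opposite ends for many of the 44 genes, as shown further on. Several of the larger differences are therefore also given without 1 of them, or without each in turn.

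No remodeller gene differed between the genotypes at the adjusted threshold. By edgeR's quasi-likelihood test with Benjamini-Hochberg adjustment over all 27939 genes tested, 0 of the 44 members passed, where 0% of all genes did, and the adjusted p of the members ran from 0.864 to 0.997. At an unadjusted p under 0.05 there were also 0 members, against 5.83% of all genes (2.44% higher and 3.38% lower). DESeq2 called 0 members (0.222% of all genes) and had 0 at an unadjusted p under 0.05 (5.55%). By adjusted p, 0 members also passed in edgeR's likelihood ratio test (0.104% of all genes), in limma-voom (0%) and in its form that weights libraries by quality (0.00716%). The fitted difference was above 0 for 25 members, where 49.9% of all genes lay above 0, and below 0 for 19. Its median was 0.007 against -0.001 over all genes tested. With library totals or the upper quartile as the scaling the median was -0.009 and -0.004, against -0.016 and -0.012 over all genes. Its sign thus depends on the scaling and gives no direction. The gap to all genes was 0.007 and 0.008 in these fits, but -0.035 without wild type replicate 2. Groups did not overlap for 2 members, Dpf2 and Smarca5, or 4.55%, against 11.7% of all genes, and both were higher in heterozygous cortex (5.88% of all genes).

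The intervals of the differences were narrow. The standard error of the log2 difference had a median of 0.08 over the members and ran from 0.06 for Pbrm1 to 0.18 for Baz1a. The 95% interval lay within a 1.5-fold change in either direction for 43 of 44 members and within a 2-fold change for all 44, with a median half-width of 0.18 on the log2 scale. No interval reached down to the fitted difference of Setd5 (-0.56), and the lowest bound was -0.52, for Dpf3. On the upper side the bound exceeded 0.56 for 1 gene, Baz1a, at 0.70. A shift as large as the fitted difference of Setd5 thus lies outside the interval of 43 members. The interval of Setd5 itself ran from -0.72 to -0.40, and 42 members had their lower bound above its upper end. Differences well inside the half-width could not be told from 0 with these libraries. The half-width is not the limit of the adjusted test. In edgeR's quasi-likelihood test Setd5 had an adjusted p of 0.258, and 0 of 27939 genes passed.

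**Figure D1:**
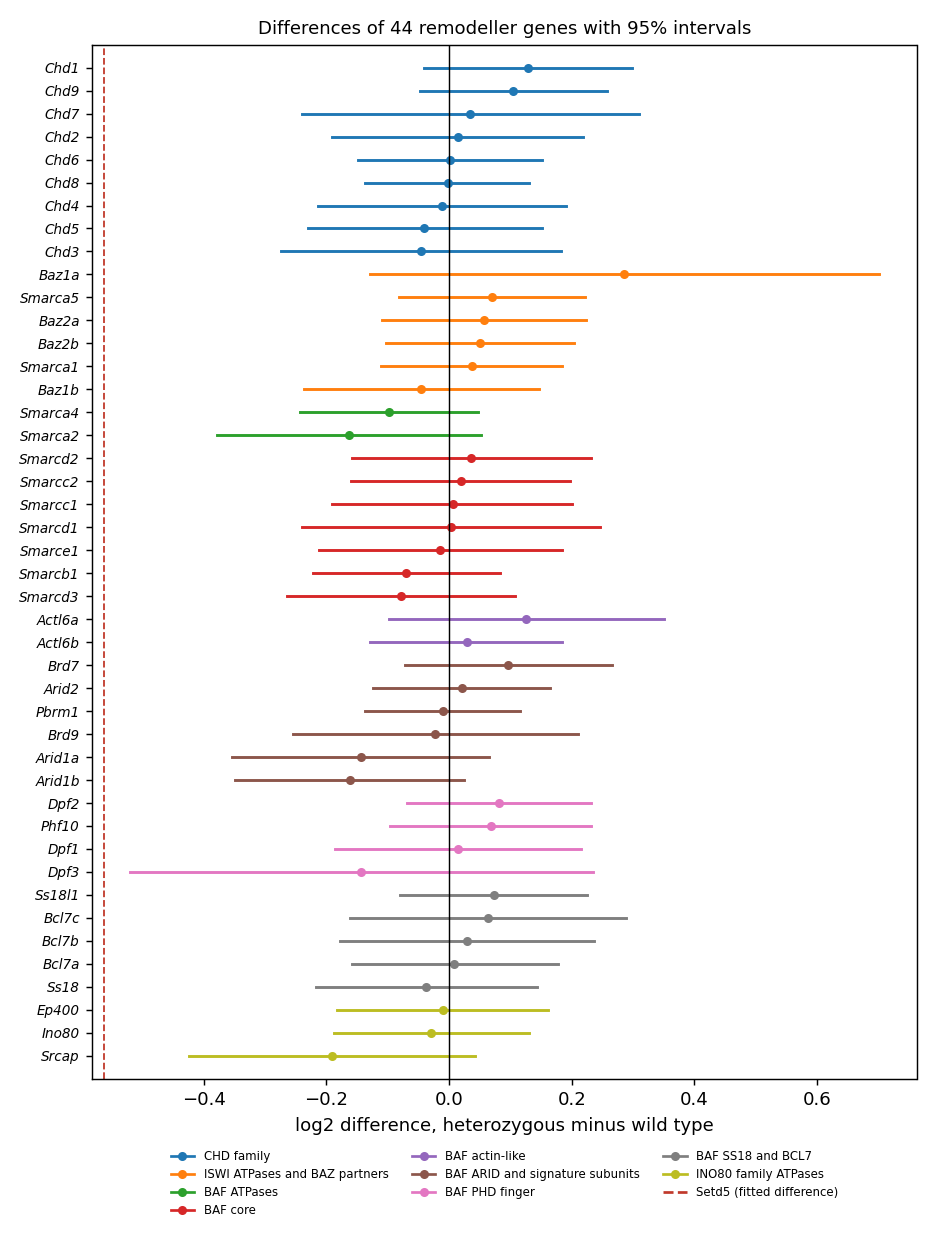
Log2 difference (heterozygous minus wild type) of the 44 remodeller genes, with points for the fitted value, bars for the 95% interval of edgeR's quasi-likelihood fit and colours for the role; the dashed line marks Setd5 at -0.56. Every bar spans 0, and the widest belong to Baz1a and Dpf3, the genes with the fewest counts.

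Both alternative BAF motors had fitted levels below wild type, and neither passed the test. Smarca2, which encodes the BRM ATPase, had 186, 181 and 169 CPM in the heterozygous libraries, and 205, 171 and 224 CPM in the wild type ones. The heterozygous libraries lay inside the range of the wild type libraries except for replicate 3, which was the lowest of the 6. The fitted level was 89.3% of wild type, with a log2 difference of -0.16 (SE 0.10) and a 95% interval from -0.38 to 0.05. Wild type replicate 2 left out, it was -0.27, and wild type replicate 3 left out, -0.07. Smarca4, the alternative ATPase BRG1, stood at 80.6, 76.5 and 79.3 CPM in the heterozygous libraries, and 84.2, 79.2 and 89.5 CPM in the wild type ones. All 3 heterozygous values were close to wild type replicate 2 and below wild type replicates 1 and 3, and the log2 difference was -0.10 (SE 0.07), or -0.05 without wild type replicate 3.

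The large ARID subunits, which tether canonical BAF to DNA and exclude each other from the complex, include the member with the smallest p, Arid1b. This gene had 51.7, 45.4 and 48.6 CPM in the heterozygous libraries, and 51.1, 51.8 and 60.1 CPM in the wild type ones. The groups met at heterozygous replicate 1 and wild type replicate 1, and the gap came mainly from wild type replicate 3, since the log2 difference of -0.16 (SE 0.08) was -0.08 without that library. Without wild type replicate 2 it was -0.20. Its adjusted p was 0.864 (over the 20 alternatives 0.563 to 1). Arid1a, its alternative in the complex, had 59.5, 54.6 and 54.3 CPM in the heterozygous libraries, and 65.0, 53.3 and 67.9 CPM in the wild type ones. Here wild type replicate 2 was the lowest of all 6 libraries and the log2 difference was -0.14 (SE 0.09), or -0.25 without that library and -0.07 without wild type replicate 3. Arid2, the ARID subunit of the PBAF complex, differed by 0.02 (SE 0.06). Pbrm1, the polybromo subunit of the same complex, had the smallest standard error of the 44, at 67.8 ± 0.533 CPM in the heterozygous group and 68.3 ± 1.53 CPM in the wild type group (SD, n = 3 each), and its log2 difference was -0.01 (SE 0.06). Brd7, a bromodomain subunit of PBAF, had 60.1, 62.4 and 59.8 CPM in the heterozygous libraries, and 59.0, 60.5 and 51.1 CPM in the wild type ones. The groups overlapped, and the log2 difference was 0.10, or 0.025 without wild type replicate 3. Brd9, its counterpart in the non-canonical BAF complex, differed by -0.02 (SE 0.10) with wild type libraries between 88.7 and 120.1 CPM.

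The core subunits that hold BAF together all had fitted differences within 0.08 of 0 on the log2 scale, and none passed the test. Smarcb1, the SNF5 subunit lost in rhabdoid tumours, differed by -0.07 (SE 0.07) and Smarce1, the HMG-box subunit, by -0.01 (SE 0.09). The scaffold subunits Smarcc1 and Smarcc2 differed by 0.01 and 0.02, and the SMARCD subunits, which bridge to transcription factors, by 0.00 for Smarcd1, 0.04 for Smarcd2 and -0.08 for Smarcd3. Among the BCL7 proteins, small subunits of the ATPase module, Bcl7a differed by 0.01, Bcl7b by 0.03 and Bcl7c by 0.06. All of these 10 genes had a standard error between 0.07 and 0.11.

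The exchanged subunits showed how far adult cortex holds the neuronal forms. Actl6b, the neuronal actin-like subunit, lies at chr5:137553517-137569582 (GRCm38, plus strand) and Actl6a, its counterpart in dividing cells, at chr3:32706298-32726973 (plus strand). Actl6b had 9.35, 9.65 and 9.51 RPKM in the heterozygous libraries, and 9.63, 8.58 and 9.75 RPKM in the wild type ones. Actl6a had 2.34, 2.42 and 2.72 RPKM in the heterozygous libraries, and 2.43, 2.13 and 2.29 RPKM in the wild type ones. Within every library Actl6b was the higher, with a log2 ratio of 1.98 ± 0.09 (SD over 6 libraries), or 3.95-fold. Of the exon bases of Actl6a, 11.6% also belong to Mrpl47 on the opposite strand, so its level may hold reads of that gene. The sequences from 250 bases before to 50 bases after the start that RefSeq gives each gene on GRCm38.p6 are shown because, of the neuronal subunit exchanges in which the neuronal form was the higher, this ratio depended least on the gene length used and never fell under 2.81-fold; capitals mark each CpG.
Actl6b, chr5:137553296-137553595, plus strand: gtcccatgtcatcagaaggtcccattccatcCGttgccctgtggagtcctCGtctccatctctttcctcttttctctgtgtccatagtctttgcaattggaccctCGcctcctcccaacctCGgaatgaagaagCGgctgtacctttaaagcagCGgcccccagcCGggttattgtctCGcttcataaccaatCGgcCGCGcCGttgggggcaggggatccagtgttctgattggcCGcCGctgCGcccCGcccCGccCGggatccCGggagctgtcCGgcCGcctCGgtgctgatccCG
Actl6a, chr3:32708296-32708595, plus strand: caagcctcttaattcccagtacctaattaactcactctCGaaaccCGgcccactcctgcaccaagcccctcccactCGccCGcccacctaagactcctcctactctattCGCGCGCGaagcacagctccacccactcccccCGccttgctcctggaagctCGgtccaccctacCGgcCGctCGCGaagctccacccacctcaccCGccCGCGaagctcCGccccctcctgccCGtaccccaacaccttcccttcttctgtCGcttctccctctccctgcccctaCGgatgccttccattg
These windows hold 23 CpG in Actl6b and 21 in Actl6a, against a median of 7 over 32851 promoters of the same length. The hexamer GGGCGG, searched on both strands and itself holding a CpG, is in both windows, and CCAAT, on either strand, is in that of Actl6b alone. Over all promoters GGGCGG is in 35.7%, CCAAT in 37.4% and TATAAA in 13.6%. Of the members 35 have an entry, with 40 windows in all, and these hold a median of 31 CpG, with GGGCGG in 92.5%, CCAAT in 30.0% and TATAAA in 5% of them. These counts describe letters in a window and say nothing of factors bound there.

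The genotypes did not separate by this balance. The log2 ratio of Actl6b to Actl6a was 1.94 ± 0.11 in heterozygous and 2.03 ± 0.05 in wild type libraries (SD, n = 3 each), and a two-sided exact permutation test gave p = 0.3 (1 after Benjamini-Hochberg adjustment over 21 pairs), where the smallest value possible for 3 libraries against 3 is 0.1. Between genotypes Actl6b differed by 0.03 (SE 0.07) on the log2 scale and Actl6a by 0.13 (SE 0.10), with the highest Actl6a value in heterozygous replicate 3. Ss18l1, the calcium-responsive neuronal subunit CREST, had 10.7, 10.7 and 10.4 RPKM in the heterozygous libraries, and 10.5, 9.32 and 10.4 RPKM in the wild type ones. Ss18, its paralog, had 1.76, 1.95 and 1.86 RPKM in the heterozygous libraries, and 1.98, 1.95 and 1.79 RPKM in the wild type ones. Ss18l1 was 5.49-fold the higher per kilobase of exon and higher in 6 of 6 libraries, though the fold was 1.81 with the length of the principal transcript (the APPRIS choice in the annotation) and 1.28 with the median transcript length. Their log2 ratio was 2.51 ± 0.07 in heterozygous and 2.40 ± 0.14 in wild type libraries (exact permutation p = 0.4, adjusted p = 1). Between genotypes Ss18l1 differed by 0.07 (SE 0.07) and Ss18 by -0.04 (SE 0.08).

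The PHD-finger subunits were less clearly divided. Phf10, listed as the progenitor form, had 13.2, 13.2 and 14.1 RPKM in the heterozygous libraries, and 13.7, 13.2 and 11.7 RPKM in the wild type ones. Dpf1, the neuronal form, had 6.88, 6.77 and 5.69 RPKM in the heterozygous libraries, and 6.53, 5.91 and 6.69 RPKM in the wild type ones, so Phf10 was the higher in all 6 libraries, by 2.06-fold. Dpf3 was far lower, with 0.597, 0.657 and 0.538 RPKM in the heterozygous libraries, and 0.680, 0.542 and 0.757 RPKM in the wild type ones, which is 21.1-fold below Phf10. Between genotypes Dpf1 differed by 0.01 (SE 0.09), Dpf3 by -0.14 (SE 0.17) and Phf10 by 0.07 (SE 0.07) on the log2 scale. Adult cortex in these libraries thus held Actl6b and Ss18l1 above their counterparts but not Dpf1 or Dpf3 above Phf10, and this order was the same under each of the 4 gene lengths tried. Dpf2, the widely expressed member, had 33.1, 32.8 and 33.1 CPM in the heterozygous libraries, and 32.6, 29.4 and 31.6 CPM in the wild type ones. Each heterozygous library lay just above each wild type library, at 32.8 CPM or more against 32.6 CPM or less, and the log2 difference of 0.08 (SE 0.07) had an adjusted p of 0.89 (over the 20 alternatives 0.805 to 1).

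Of the other duplicated subunits, Smarcc2 exceeded Smarcc1 by 5.66-fold, a ratio whose log2 value varied by only 0.06 (SD) over the 6 libraries and whose fold was at least 3.20 under every length tried. Smarcc2 had 30.2, 30.5 and 30.9 RPKM in the heterozygous libraries, and 30.4, 26.9 and 33.1 RPKM in the wild type ones. Smarcc1 had 5.31, 5.59 and 5.21 RPKM in the heterozygous libraries, and 5.13, 4.87 and 6.05 RPKM in the wild type ones. Smarcd1 had 23.8, 22.0 and 23.1 RPKM in the heterozygous libraries, and 20.8, 20.4 and 27.5 RPKM in the wild type ones, and wild type replicate 3 stood out above the rest. Of the exon bases of Smarcd1, 12.7% also belong to Gm17349 on the opposite strand, so its level may hold reads of that gene. Smarcd3, the form common in muscle and neurons, had 12.3, 11.7 and 12.6 RPKM in the heterozygous libraries, and 12.4, 11.8 and 14.5 RPKM in the wild type ones, lower than Smarcd1 in 6 of 6 libraries with exon length but 1.33-fold higher with the principal transcript length. Of the exon bases of Smarcd3, 48.2% also belong to Chpf2 on the opposite strand, and without strand in the library kit the reads of both genes cannot be told apart there. Smarcd2 was 7.53-fold below Smarcd1. Per kilobase of exon Smarca2 averaged 12.5 ± 0.598 RPKM in the heterozygous group and 14.0 ± 1.86 RPKM in the wild type group (SD, n = 3 each). Smarca4 averaged 12.2 ± 0.324 RPKM in the heterozygous group and 13.0 ± 0.793 RPKM in the wild type group (SD, n = 3 each), and Smarca2 was the higher in 4 of 6 libraries, by 1.05-fold on average. With the other lengths Smarca2 was also the higher, by 2.48-fold for the principal and 15.6-fold for the median transcript, so the size of the ratio depends on the length used. Arid1a exceeded Arid1b by 1.26-fold in 6 of 6 libraries and by 1.59-fold with the principal transcript length. Bcl7b was above Bcl7a by 1.59-fold, or 1.08-fold with the principal transcript length. It was above Bcl7c by 6.45-fold, or 1.38-fold with the principal transcript length.

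**Figure D2:**
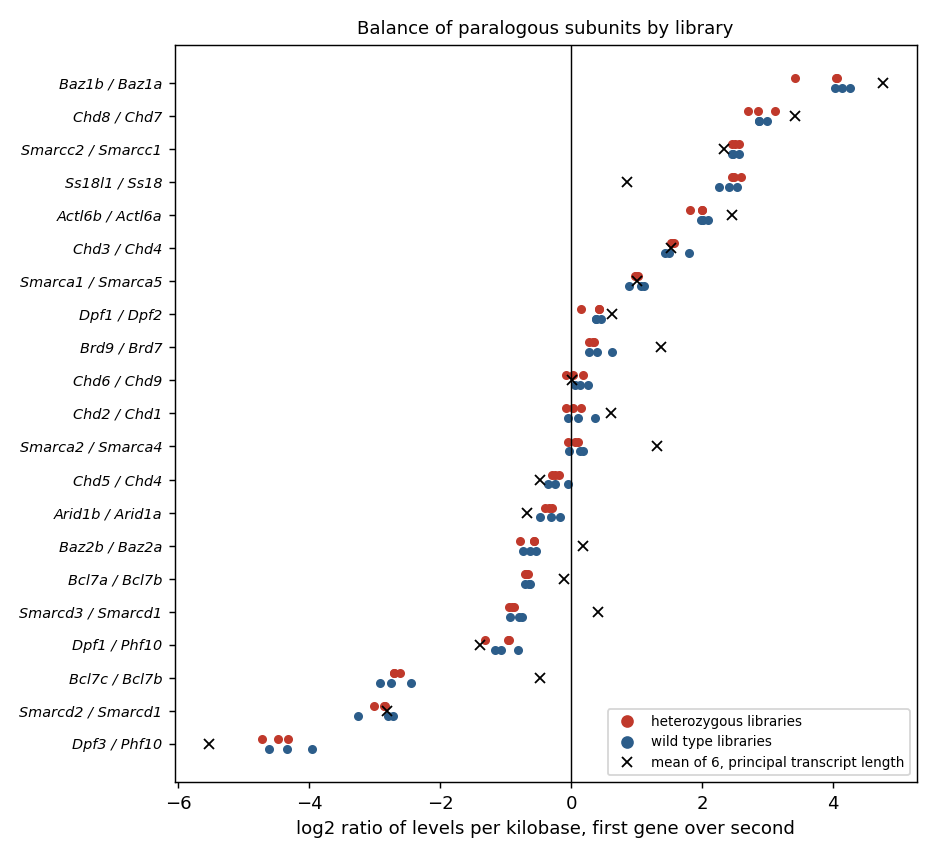
Log2 ratio of level per kilobase of exon for 21 paralog pairs, with each heterozygous library as a red point and each wild type library as a blue point below it; crosses give the mean of 6 libraries with the principal transcript length. In every pair the red and blue points overlap, while crosses on the other side of 0 (Smarcd3 / Smarcd1, Baz2b / Baz2a) mark an order that depends on the length used.

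Over all 21 pairs the groups overlapped in each, the smallest exact permutation p was 0.3 and every adjusted p was 1. Since the smallest p possible for 3 libraries against 3 is 0.1, no pair could have passed 0.05 in this test. The difference in log2 ratio between genotypes ran from -0.30 for Baz1b over Baz1a to 0.11 for Ss18l1 over Ss18. Within libraries, 18 pairs had the same gene higher in 6 of 6, and 14 of these kept their order under each of the 4 lengths.

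The CHD family, nucleosome movers with paired chromodomains, held the most abundant member. Chd3, a NuRD motor, was at 45.7 ± 0.566 RPKM in the heterozygous group and 47.2 ± 7.13 RPKM in the wild type group (SD, n = 3 each), and its log2 difference was -0.04 (SE 0.10). Chd4, the NuRD motor that most cells use, had 128, 123 and 126 CPM in the heterozygous libraries, and 123, 112 and 145 CPM in the wild type ones. Chd5, the neuronal NuRD motor, had 125, 129 and 127 CPM in the heterozygous libraries, and 142, 114 and 136 CPM in the wild type ones. For both genes the wild type libraries lay on either side of the heterozygous ones, and the log2 differences were -0.01 (SE 0.09) and -0.04 (SE 0.09). Per kilobase Chd3 was 2.95-fold above Chd4, and Chd4 was 1.17-fold above Chd5, though up to 8.29-fold with another length. Chd1, which travels with RNA polymerase on active genes, had 38.9, 37.7 and 36.4 CPM in the heterozygous libraries, and 37.5, 33.9 and 31.9 CPM in the wild type ones, the highest 2 of these libraries being heterozygous. Its log2 difference was 0.13 (SE 0.08), its adjusted p 0.866 (over the 20 alternatives 0.690 to 1), and it reached an unadjusted p of 0.0334 without wild type replicate 1. Chd9 had 107, 106 and 97.9 CPM in the heterozygous libraries, and 103, 91.6 and 94.4 CPM in the wild type ones, a difference of 0.10 (SE 0.07). Chd8, a regulator linked to autism in people, was at 93.7 ± 2.43 CPM in the heterozygous group and 93.8 ± 3.83 CPM in the wild type group (SD, n = 3 each), a difference of -0.002 (SE 0.06) with an interval from -0.14 to 0.13. Chd2, of whose exon bases 19.3% also belong to 1810026B05Rik on the same strand, differed by 0.01, and Chd6 by 0.00. Chd7, mutated in CHARGE syndrome, was low, with 8.86, 10.8 and 12.3 CPM in the heterozygous libraries, and 10.2, 10.2 and 10.8 CPM in the wild type ones, and the heterozygous libraries alone spanned more than the wild type ones.

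The ISWI motors are Smarca1 (SNF2L), known as the form of differentiated neurons, and Smarca5 (SNF2H), that of dividing cells. Smarca1 had 8.14, 7.90 and 7.91 RPKM in the heterozygous libraries, and 8.22, 7.32 and 7.81 RPKM in the wild type ones. Smarca5 had 4.03, 4.04 and 3.99 RPKM in the heterozygous libraries, and 3.92, 3.96 and 3.60 RPKM in the wild type ones, so Smarca1 was 2.01-fold the higher with exon length, though below Smarca5 with the median transcript length. Of the words of 50 bases in the longest Smarca5 transcript 35.3% also occur in transcripts of other genes, chiefly the processed pseudogene Gm13135, so part of its reads may be lost or shared. Between genotypes Smarca1 differed by 0.04 (SE 0.07) and Smarca5 by 0.07 (SE 0.07), and every heterozygous value of Smarca5 lay above every wild type value, at 3.99 RPKM or more against 3.96 RPKM or less. Baz1a, the partner of SMARCA5 in the ACF complex, had the largest fitted difference of the 44, 0.29 (SE 0.18). It had 3.85, 5.85 and 3.87 CPM in the heterozygous libraries, and 3.75, 3.23 and 4.13 CPM in the wild type ones, so a single library, heterozygous replicate 2, lay apart from 5 that did not separate, and without that library the difference was 0.06. Baz1b, the Williams syndrome transcription factor, differed by -0.04 (SE 0.09). Baz2a and Baz2b, which carry bromodomains and build other ISWI complexes, differed by 0.06 and 0.05. Per kilobase of exon Baz1b was 15.9-fold above Baz1a, and from 5.76-fold to 28.9-fold over the 4 lengths tried.

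Of the INO80-family motors, Srcap, which deposits the histone variant H2A.Z, had the second smallest p. It had 59.9, 53.8 and 59.6 CPM in the heterozygous libraries, and 67.8, 55.4 and 74.5 CPM in the wild type ones. Heterozygous libraries and wild type replicate 2 formed the low end, and the other wild type libraries the high end. The log2 difference was -0.19 (SE 0.10) with an interval from -0.42 to 0.04, which became -0.30 when wild type replicate 2 was left out and -0.09 when wild type replicate 3 was. Of the exon bases of Srcap 65.0% also belong to Gm42715, an annotated protein-coding gene on the same strand, so reads there may be lost or assigned to either gene. Ep400, the motor of the TIP60 complex, differed by -0.01 (SE 0.08) and Ino80 by -0.03 (SE 0.07).

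**Figure D3:**
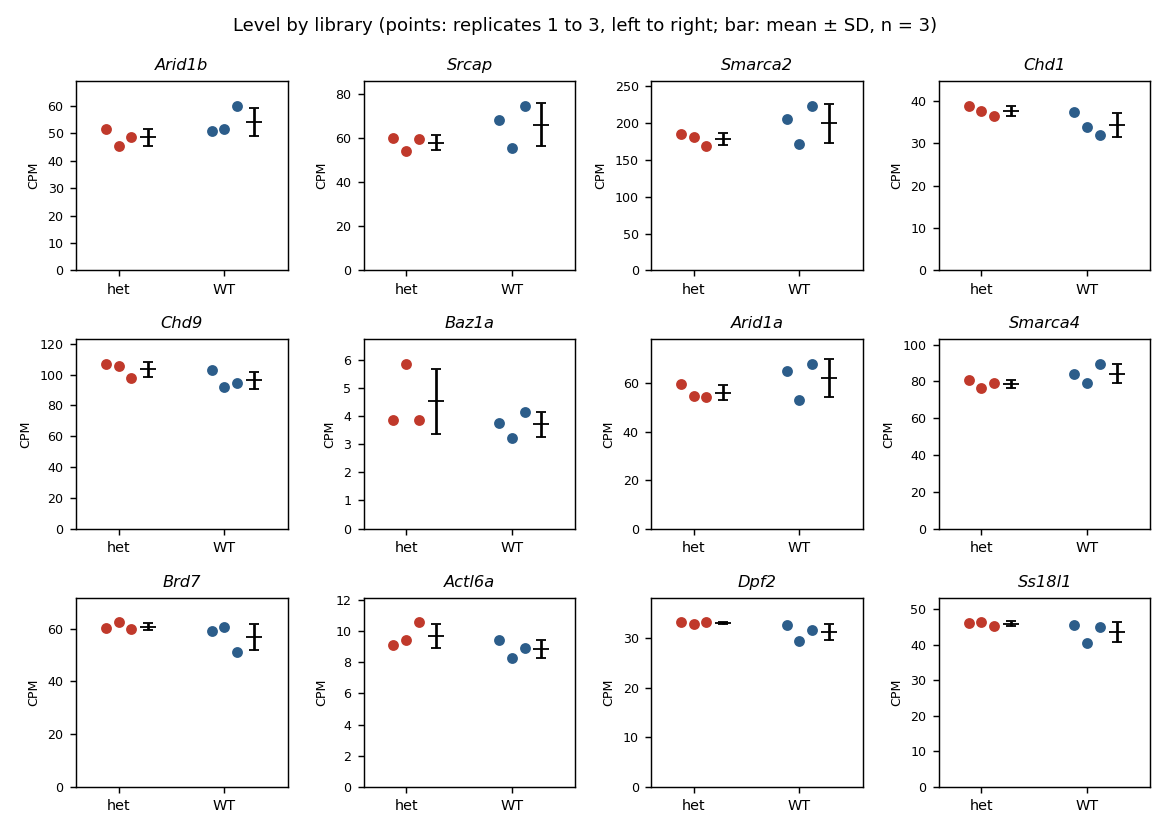
Level in CPM of the 12 members with the smallest p, with a point per library (replicates 1 to 3 from left to right, heterozygous in red, wild type in blue) and the mean ± SD beside them. Only for Dpf2 do the groups not overlap, and wild type replicate 2 lies low in Srcap, Smarca2 and Arid1a.

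As a description without a test, the members varied less among the heterozygous than among the wild type libraries. The SD of log2 CPM had a median over members of 0.06 in heterozygous and 0.12 in wild type libraries, and it was larger in wild type for 37 members, or 84.1%, against 64.1% of all genes tested. Wild type replicate 2 lay below the wild type mean for 39 of 44 members, or 88.6%, with a median deviation of -0.10, where 49.5% of all genes lay below and their median was 0.00. It held the lowest of the 6 values for 24 of 44 members, where it did so for 18.3% of all genes. Of the 62 other remodelling genes described next, 61.3% lay below the wild type mean there. Wild type replicate 3 held the highest value for 17 of 44 members, where it did so for 24.3% of all genes. Heterozygous replicates 1, 2 and 3 had 22, 17 and 19 members below the wild type mean. These are 50%, 38.6% and 43.2%, against 49.5%, 48.5% and 47.9% of all genes. Wild type replicates 1 and 3 had 10 and 12, or 22.7% and 27.3%, against 48.9% and 50.3% of all genes. Deviations are taken from the mean of the 3 wild type libraries, so low values in replicate 2 by themselves tend to place replicates 1 and 3 above it. Mitochondrial transcripts took 8.76% to 9.07% of counts in heterozygous libraries, and 8.77%, 9.58% and 7.47% in wild type replicates 1 to 3, and their part in this pattern was not tested.

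**Figure D4:**
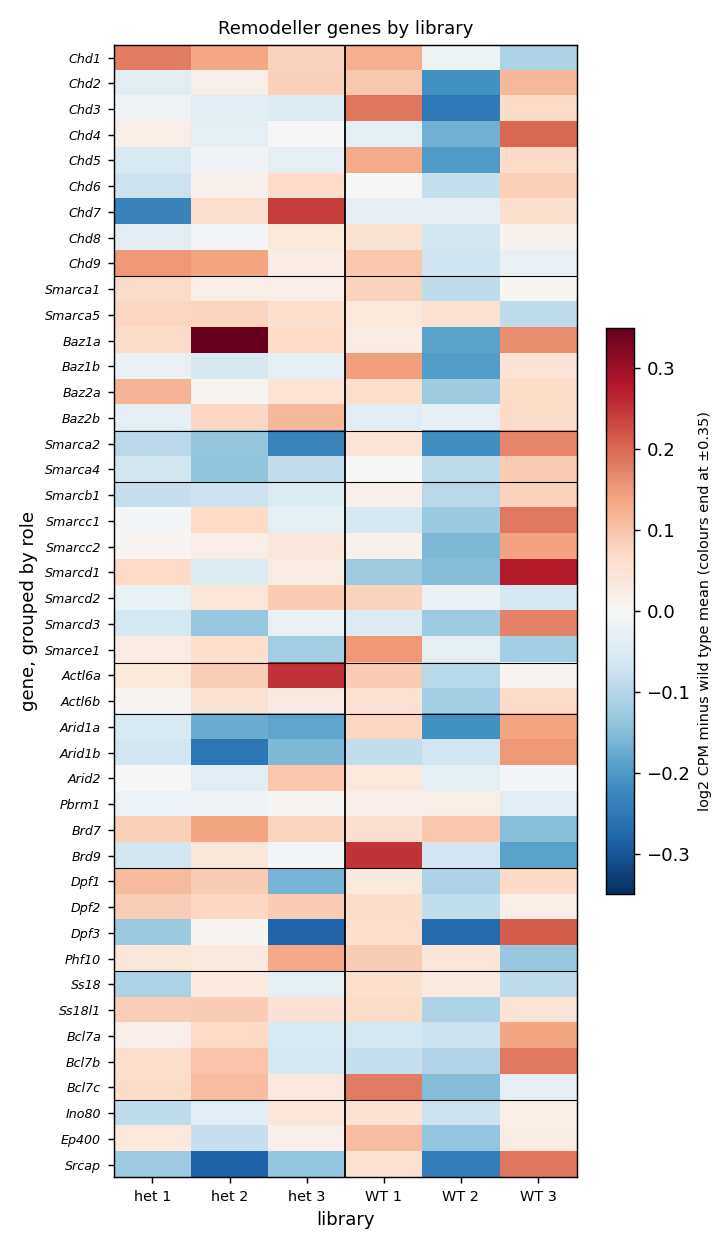
Log2 CPM of each remodeller gene in each library minus its wild type mean, with heterozygous libraries on the left, wild type on the right and rules between roles. The column of wild type replicate 2 is blue for 39 of 44 genes, and the heterozygous columns show no such run of genes on 1 side.

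Leaving out either extreme wild type library moved the same genes in opposite ways. Without wild type replicate 2 the log2 difference was -0.30 for Srcap, -0.27 for Smarca2, -0.25 for Arid1a, -0.16 for Chd3 and -0.14 for Smarca4. Without wild type replicate 3 it was -0.09, -0.07, -0.07, -0.02 and -0.05 for these 5 genes in the same order. They are named because they were the members at an unadjusted p under 0.05 without wild type replicate 2, or 11.4% of members against 8.89% of all genes, with adjusted p from 0.466 to 0.558 in edgeR's quasi-likelihood test. Since that library was singled out for its low values in most members, leaving it out raises their wild type mean, and these values are no evidence of a decrease. Without wild type replicate 3 the count was 1, Smarcd1, which was higher at 0.16 (adjusted p = 0.693), and without wild type replicate 1 it was also 1, Chd1, higher at 0.20 (adjusted p = 0.736).

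Other remodelling genes were read from a list of 62, made of the remaining INO80, SRCAP and TIP60 subunits, NuRD partners, ISWI partners, further BAF subunits and other SNF2-family ATPases. All 62 were tested, 0 passed edgeR's adjusted threshold and 3 stood at an unadjusted p under 0.05, or 4.84% against 5.83% of all genes. All 3 had fitted values above wild type, where 2.44% of all genes were higher at this limit. Tfpt, an INO80 subunit, had 17.1, 17.9 and 17.8 CPM in the heterozygous libraries, and 15.6, 14.5 and 14.4 CPM in the wild type ones, a log2 difference of 0.24 (SE 0.08) with groups that did not overlap and an adjusted p of 0.803. Ino80e, another INO80 subunit, differed by 0.19 (SE 0.08) and Epc2, a scaffold of the TIP60 acetyltransferase complex, by 0.13 (SE 0.06). Next by p came Bicra, a subunit of non-canonical BAF, at -0.28 (SE 0.12), Ttf2, a transcription termination ATPase, at -0.42 (SE 0.21), and Hdac1, a NuRD deacetylase, at -0.25 (SE 0.13). The median of the list was 0.03 against -0.001 over all genes tested. Above wild type lay 39 genes, or 62.9% against 49.9% of all genes, and 23 lay below. Groups did not overlap for 7 genes, or 11.3% against 11.7% of all genes. These counts describe the list, and a shared direction was not tested. DESeq2 called 0 of the 62 by adjusted p, where it called 0.222% of all genes.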

How the data were processed

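The authors' deposited tables hold raw counts of reads per gene, 1 table per library, not normalized. Per the submitters' processing notes Bowtie2 2.3.4.3 and featureCounts were used, besides FastQC and DESeq2, on mm10 and GRCm38.p6; the order, the settings and the handling of reads that match several genes are not given in the sources used. Per the labels' protocols library preparation was by TruSeq RNA Library Prep Kit v2, a kit without strand information.

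Symbols, positions and exon lengths came from GENCODE M21. Genes were kept by filterByExpr (minimum count 10, minimum total 15), scaled by TMM and tested by edgeR 4.0.16 (R 4.3.3; glmQLFit, then glmQLFTest), with Benjamini-Hochberg adjustment over 27939 genes and a threshold of 0.05; intervals are at 95% from the same fit. All 44 members, with counts from 204 to 38005 per library, passed the filter. DESeq2 1.42.0 and limma 3.58.1 were alternatives. Log2 CPM used a prior count of 1. Paralog ratios were compared by two-sided exact permutation tests. The fit was tested on simulated data. Members and lists were chosen with earlier results of these data known. Values per library are given for the 12 members with the smallest p and for the paralogs that BAF, ISWI and NuRD exchange, the rest being summarised. Replicate numbers follow record order and pair nothing.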

Additional observations from a re-analysis of the deposited data

How the results depend on the processing

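No member was called by edgeR, DESeq2 or limma in any of 20 alternative fits, nor at an adjusted p under 0.1; the smallest adjusted p was 0.466. The members at an unadjusted p under 0.05 numbered 0 in 16 of the 20, 1 when all genes with a count were kept (Srcap), and 0 to 5 with a library left out (1 without wild type replicate 1, 5 without wild type replicate 2, 1 without wild type replicate 3). The share of all genes was 5.1% with all genes with a count kept, and 6.63%, 8.89% and 6.69% without wild type replicates 1, 2 and 3. The median difference of the members ran from -0.04 to 0.03. Of the 44 members 20 kept their direction in all 20 fits, among them the 12 with the smallest p. Those 12 were picked from the same libraries that the alternatives reuse, so their kept direction is no separate support for a difference. Setd5 passed with all genes with a count kept (-0.57), by DESeq2 (-0.565), by the likelihood ratio test (-0.56) and by limma-voom weighted by library quality (-0.59), and its difference ran from -0.62 to -0.52 with a library left out. The 62 other remodelling genes at an unadjusted p under 0.05 numbered 1 in the likelihood ratio test and from 1 (without heterozygous replicate 1) to 7 (without wild type replicate 2) with a library left out. In these fits the share of all genes was, in turn, 5.01%, 3.91% and 8.89%. Pairs whose groups do not overlap, 0 of 21, numbered 0 to 5 with a library left out. Groups of fewer libraries separate more often without any difference, and no share to set these counts against was computed, so they give no result about the balance. Gene length moved the order of paralogs: the log2 ratio of Smarcd3 to Smarcd1 was 0.41 with the principal transcript (a length added after the data were seen), that of Smarca1 to Smarca5 -1.03 and that of Brd9 to Brd7 -0.66 with the median transcript, and that of Baz2b to Baz2a 0.18 with the longest or the principal and 2.96 with the median transcript, against -0.63 with all exons. No paired analysis was possible because the labels give no number that a heterozygous and a wild type library share; replicates 1 to 3 are in record order.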
